A study of Mus musculus with 6 samples.

Results

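Srebf1, Fasn, Elovl6, Fads2 and Pklr, genes of fatty acid synthesis and of the last step of glycolysis, were followed in mouse liver that overexpressed Ly6d and in control liver. The 5 genes are 5 of the 1834 genes in the deposited table, and all 5 were among the 1780 with enough signal to be tested. They were picked by name, with their difference between the same libraries already known, so what sets the groups apart in them is given here as a description without a test. RNA from whole liver was sequenced from 3 AAV-Ly6d libraries (genotype Ly6d overexpression) and 3 AAV-GFP libraries (genotype WT). Both groups received an adeno-associated virus (AAV), a vector used to bring a gene into liver cells, and both were on the same diet. The study's title names MASLD, steatotic liver disease with metabolic dysfunction, as its subject. The vector's promoter, serotype and dose, the time after injection, the diet, and the strain, sex and age of the mice are not stated in the sources at hand, nor whether each library came from a separate animal. Any p-value below therefore measures the spread between these libraries, which may be technical.

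Srebf1 encodes the sterol regulatory element-binding proteins SREBP-1a and SREBP-1c, which are made from alternative first exons. SREBP-1c is the main form in liver, where insulin and the oxysterol receptor LXR raise its activity and where it switches on genes of fatty acid synthesis. ChREBP, a glucose-sensing factor encoded by Mlxipl, acts beside it on glycolytic and lipogenic genes through the carbohydrate response element, and Pklr is its classic target. Fasn makes palmitate, Elovl6 lengthens palmitate to stearate, and Pklr encodes the liver and red cell pyruvate kinase that supplies pyruvate. Fads2 encodes the desaturase that begins the synthesis of long polyunsaturated fatty acids from dietary precursors, and it responds to PPAR-alpha as well as to SREBP-1c.

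The 5 genes lie on 3 chromosomes of GRCm38, the assembly also called mm10. Srebf1 (ENSMUSG00000020538) spans 60199089 to 60222581 on the minus strand of chromosome 11, and Fasn (ENSMUSG00000025153) spans 120805846 to 120824547 on the same strand. Elovl6 (ENSMUSG00000041220) spans 129532355 to 129638495 and Pklr (ENSMUSG00000041237) spans 89136142 to 89146784, both on the plus strand of chromosome 3. Fads2 (ENSMUSG00000024665) spans 10062765 to 10101746 on the minus strand of chromosome 19. The deposited values are per gene, so transcripts from the alternative starts of Srebf1 and of Pklr cannot be told apart.

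Promoter windows are shown for 3 genes that were lower in AAV-Ly6d and for Fads2, which was higher. Each window is 300 bases long, ends 50 bases after a RefSeq start site (GRCm38.p6) and is written in the direction of transcription. All 5 genes had at least 1 window, with 3 for Srebf1 and 2 for Pklr. Shown are the Srebf1 window nearest to the 3′ end of the gene, which is the SREBP-1c start (chr11:60210422-60210721, minus strand), the Fasn window (chr11:120824498-120824797, minus strand), the second Pklr window, which is the start used in liver (chr3:89136373-89136672, plus strand), and the Fads2 window (chr19:10101454-10101753, minus strand). Capitals mark every match, on either strand, to the motifs named in the next paragraph.
Srebf1: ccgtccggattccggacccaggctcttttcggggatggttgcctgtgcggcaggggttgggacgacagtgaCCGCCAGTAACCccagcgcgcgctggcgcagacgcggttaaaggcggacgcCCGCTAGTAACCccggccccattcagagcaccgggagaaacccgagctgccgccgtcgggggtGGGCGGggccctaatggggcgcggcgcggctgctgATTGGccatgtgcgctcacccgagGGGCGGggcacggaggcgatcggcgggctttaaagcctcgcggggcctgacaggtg
Fasn: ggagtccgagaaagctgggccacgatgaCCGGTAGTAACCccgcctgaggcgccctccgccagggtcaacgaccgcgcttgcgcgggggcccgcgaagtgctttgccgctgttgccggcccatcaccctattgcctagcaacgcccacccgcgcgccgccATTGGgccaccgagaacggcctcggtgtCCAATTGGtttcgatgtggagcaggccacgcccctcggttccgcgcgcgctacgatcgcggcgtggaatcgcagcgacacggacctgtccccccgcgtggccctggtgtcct
Pklr: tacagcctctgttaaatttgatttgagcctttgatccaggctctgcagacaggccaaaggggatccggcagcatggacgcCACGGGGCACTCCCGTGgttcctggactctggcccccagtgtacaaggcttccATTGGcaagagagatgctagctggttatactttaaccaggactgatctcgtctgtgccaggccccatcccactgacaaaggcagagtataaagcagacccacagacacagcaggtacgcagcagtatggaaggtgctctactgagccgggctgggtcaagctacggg
Fads2: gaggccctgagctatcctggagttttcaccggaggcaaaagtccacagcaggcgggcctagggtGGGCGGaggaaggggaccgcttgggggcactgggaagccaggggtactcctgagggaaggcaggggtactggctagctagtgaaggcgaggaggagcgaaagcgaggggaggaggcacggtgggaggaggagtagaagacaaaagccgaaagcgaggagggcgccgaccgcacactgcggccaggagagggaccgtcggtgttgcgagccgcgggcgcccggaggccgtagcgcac

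A form of the LXR response element occurred at 2 places in the Srebf1 window (as CCGCCAGTAACC and CCGCTAGTAACC on the strand shown) and at 1 place in the Fasn window (CCGGTAGTAACC). In the Pklr window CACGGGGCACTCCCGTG matched the carbohydrate response element, its first base at position -170 from the start. Both motifs were written down after these windows had been read, from elements known for these genes, so their presence is no test. Of 27025 genes with a window, 9 (0.0333%) held the LXR element on either strand, among them the cholesterol exporter gene Abca1, and 14 (0.0518%) held the carbohydrate response element. Of the 9, only Srebf1, Fasn and Hpx are among the 1834 genes, and Hpx was higher in AAV-Ly6d (log2 fold change 0.47). Of the 14, only Pklr, Crybg3 (log2 fold change -0.68) and Fam124a (-0.60) are among the 1834. The NF-Y box CCAAT was found in the Srebf1, Fasn and Pklr windows and in 41.1% of genes, and 2 of its 3 matches in Fasn lie next to and partly over each other. The GC box GGGCGG was found in the Srebf1 and Fads2 windows and in 38.2% of genes. Neither the sterol response element TCACCCCAC (0.614% of genes), its shorter form CACCCCAC (3.30%), which lies within it, nor the E-box CACGTG (8.09%) had these exact letters in any window of the 5 genes. The Elovl6 window matched none of the 7 motifs.

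The vector's own gene, Ly6d, had 3181, 1799 and 3275 normalised read counts in AAV-Ly6d against 56.1, 9.68 and 182 in AAV-GFP. Of the 1780 tested genes, 782 passed limma at a Benjamini-Hochberg adjusted p of 0.05, which is 43.9%; 15.9% rose and 28.0% fell. The rule that chose the 1834 genes is not stated. Of the tested genes 0 had a log2 fold change within 0.25 of 0, so the table is not a sample of all expressed genes. Adjusted p-values and shares called within it cannot be read as those of a whole transcriptome, and absence from it says nothing of a gene's expression. Over the tested genes the log2 fold change had a median of -0.67 as deposited and of -0.33 after each library was rescaled by its median ratio to the table, a shift of 0.34. Of the calls, 36.2% were higher in AAV-Ly6d as deposited, and of 935 calls made with rescaled values 69.4% were higher.

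Srebf1 had the steadiest values of the 5 genes in AAV-Ly6d. Its normalised read count was 916, 938 and 809 in AAV-Ly6d replicates 1, 2 and 3, against 1787, 2391 and 1463 in AAV-GFP. The AAV-Ly6d libraries lay close together, and the highest of them was below the lowest AAV-GFP library. The means were 888 ± 68.6 in AAV-Ly6d and 1880 ± 471 in AAV-GFP (SD, n = 3 each), a ratio of 0.472, and the log2 fold change was -1.06 (SE 0.22). In bulk RNA such as this, fewer cells of a type and less RNA per cell cannot be told apart.

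Of the 4 lower genes, Pklr and Fasn had the log2 fold changes furthest from 0. Fasn, the fatty acid synthase gene, had 1818, 1390 and 1570 normalised read counts in AAV-Ly6d, against 2468, 6198 and 3359 in AAV-GFP. The groups did not overlap, and AAV-GFP replicate 2 stood far above the other AAV-GFP libraries. Fasn averaged 1593 ± 215 in AAV-Ly6d and 4009 ± 1948 in AAV-GFP (SD, n = 3 each), with a log2 fold change of -1.23 (SE 0.32). Pklr, the pyruvate kinase gene, had 815, 639 and 924 in AAV-Ly6d, against 1360, 3302 and 2132 in AAV-GFP. It showed the same order of AAV-GFP libraries as Fasn, with replicate 2 highest and replicate 1 lowest. Its means were 792 ± 144 in AAV-Ly6d and 2265 ± 978 in AAV-GFP (SD, n = 3 each), a ratio of 0.350 and a log2 fold change of -1.44 (SE 0.32). The ratio of means without AAV-GFP replicate 2 was 0.547 for Fasn and 0.454 for Pklr.

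Elovl6, the elongase that acts on the product of Fasn, came nearest to an overlap among the genes that were lower. It had 669, 689 and 1019 normalised read counts in AAV-Ly6d, against 1360, 2029 and 1148 in AAV-GFP. AAV-Ly6d replicate 3 lay well above the other AAV-Ly6d libraries and close below AAV-GFP replicate 3, so that the gap between groups was 1.13-fold. The means were 792 ± 197 in AAV-Ly6d and 1512 ± 460 in AAV-GFP (SD, n = 3 each), with a log2 fold change of -0.92 (SE 0.27).

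Fads2 ran opposite to the other 4 genes. Its normalised read count was 9588, 12053 and 13781 in AAV-Ly6d, against 6790, 6664 and 8055 in AAV-GFP. All AAV-Ly6d libraries were above all AAV-GFP libraries, with a gap of 1.19-fold, and AAV-GFP replicate 2, which was highest of the 6 libraries for the other 4 genes, was lowest for Fads2. The means were 11807 ± 2108 in AAV-Ly6d and 7170 ± 769 in AAV-GFP (SD, n = 3 each), a ratio of 1.65 and a log2 fold change of 0.71 (SE 0.20).

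**Figure D1:**
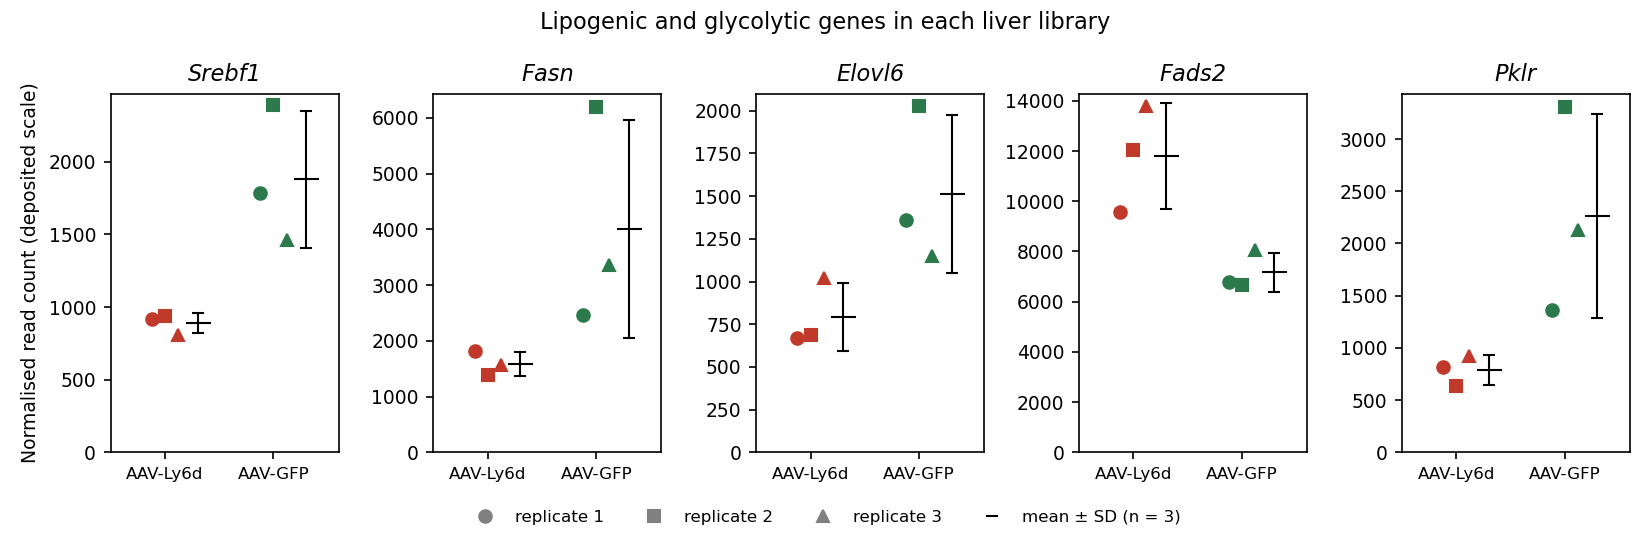
Normalised read count (vertical axes, each from 0) of the 5 genes in the 3 AAV-Ly6d libraries (left, red) and the 3 AAV-GFP libraries (right, green), with symbols for replicates and the mean ± SD in black. Srebf1, Fasn, Elovl6 and Pklr are lower in every AAV-Ly6d library, Fads2 is higher, and AAV-GFP replicate 2 is the highest library of the 4 genes that are lower.

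The groups did not overlap for any of the 5 genes, and 84.5% of all tested genes had the same property, with 49.3% lower in all AAV-Ly6d libraries and 35.2% higher in all of them, so the absence of overlap says nothing particular about the 5. The 5 genes were covered by 641 to 12667 reads per library, where counting error is at most 3.95% of the value. The spread between libraries was wider, from 7.73% of the mean for Srebf1 to 24.9% for Elovl6 in AAV-Ly6d, and from 10.7% for Fads2 to 48.6% for Fasn in AAV-GFP. Intervals of counting error take reads as independent molecules. Leaving out any 1 library, the log2 fold change ran from -1.22 to -0.87 for Srebf1, from -1.53 to -0.86 for Fasn, from -1.11 to -0.68 for Elovl6, from 0.59 to 0.85 for Fads2 and from -1.76 to -1.12 for Pklr. The smallest difference of each of the 4 lower genes was the one without AAV-GFP replicate 2. After rescaling by the median ratio the log2 fold changes were -0.71 for Srebf1, -0.89 for Fasn, -0.57 for Elovl6, 1.05 for Fads2 and -1.10 for Pklr, with no change of direction.

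Ratios between genes within a library do not depend on how the libraries were scaled. Because Fads2 was higher and the other 4 genes lower in every AAV-Ly6d library, its ratio to each had to separate the groups. That separation is therefore no further result, and the ratios only give its size. The count ratio of Fads2 to Fasn was 5.27, 8.67 and 8.78 in AAV-Ly6d, against 2.75, 1.08 and 2.40 in AAV-GFP. All AAV-Ly6d libraries were above all AAV-GFP libraries, with means of 7.57 ± 1.99 in AAV-Ly6d and 2.07 ± 0.883 in AAV-GFP (SD, n = 3 each). The groups were likewise apart for the ratio of Fads2 to Srebf1 (13.4 ± 3.32 in AAV-Ly6d and 4.03 ± 1.37 in AAV-GFP), and to Elovl6 (15.1 ± 2.10 in AAV-Ly6d and 5.10 ± 1.87 in AAV-GFP). Fads2 to Pklr was 11.8, 18.9 and 14.9 in AAV-Ly6d, against 4.99, 2.02 and 3.78 in AAV-GFP, again without overlap. Among the 4 lower genes the ratios overlapped between groups. Fasn to Srebf1 was 1.80 ± 0.278 in AAV-Ly6d and 2.09 ± 0.631 in AAV-GFP, and Pklr to Srebf1 was 0.904 ± 0.230 in AAV-Ly6d and 1.20 ± 0.382 in AAV-GFP. Elovl6 to Srebf1 was 0.908 ± 0.304 in AAV-Ly6d and 0.798 ± 0.0454 in AAV-GFP. The Pklr to Fasn ratio was 0.499 ± 0.0779 in AAV-Ly6d and 0.573 ± 0.0543 in AAV-GFP.

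Per kilobase of the longest annotated transcript, Fads2 was the most abundant of the 5 genes. Its mean level was 3748 normalised reads per kilobase in AAV-Ly6d and 2276 in AAV-GFP, and in each library it exceeded the other 4 genes. Pklr followed at 273 in AAV-Ly6d and 781 in AAV-GFP, then Srebf1 at 206 in AAV-Ly6d and 437 in AAV-GFP, Fasn at 158 in AAV-Ly6d and 399 in AAV-GFP, and Elovl6 at 133 in AAV-Ly6d and 254 in AAV-GFP. The order of the means was the same in both groups. In AAV-GFP the libraries of Pklr, Srebf1, Fasn and Elovl6 overlapped from each gene to the next in this order. In AAV-Ly6d Fasn (138 to 181) and Elovl6 (112 to 171) overlapped, while the lowest library of Pklr (220.1) was just above the highest of Srebf1 (218.1).

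The genes whose profiles over the 6 libraries were closest to each of the 5 were found by the root mean square difference of log2(value + 1), after each gene's own mean was subtracted. It is 0 for profiles of the same shape. Over 1556 other tested genes with a name, it had a median between 0.65 and 0.80 for the 5 genes. Nearest to Fads2 were Klf11, a transcription factor gene (0.045), Taok3, a kinase gene (0.058), and Elovl5 (0.10), the elongase that acts after Fads2 in polyunsaturated fatty acid synthesis. Nearest to Pklr were Lgr5, a receptor gene expressed in hepatocytes around the central vein (0.14), Prkdc, the DNA-dependent protein kinase gene (0.14), and Sspn (0.16), with Fasn at rank 4 (0.18). Nearest to Fasn were Klhl11 (0.15), Lgr5 (0.16) and Rgs12 (0.17), with Pklr at rank 8. Srebf1 was nearest to Sh3pxd2a (0.097), Stard8 (0.097) and Prr5l (0.10), and Elovl6 to Tnfrsf14 (0.090), Car8 (0.11) and Keg1 (0.12). Srebf1 stood at rank 108 from Fasn, 131 from Elovl6 and 157 from Pklr. Fads2 lay at 0.95 from Srebf1, 1.09 from Fasn, 0.88 from Elovl6 and 1.16 from Pklr, further than the median gene in each case. The likeness is a description over 6 libraries that hold the group difference itself.

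Around the 5 genes, 145 other genes of fatty acid synthesis, elongation and desaturation, their regulators, glycolysis, sterol synthesis and insulin signalling were listed, and 26 of them were tested. Of these 8 rose, 4 fell and 14 did not pass, so that 46.2% passed, close to the 43.9% of all tested genes. Their median log2 fold change was 0.38, against -0.67 over all tested genes. Because no tested gene lies near 0, such a median can change sign on few genes. Of the 26, 14 were higher and 12 lower in AAV-Ly6d, and of all 1780 tested genes 700 were higher and 1080 lower. After rescaling 14 of the 26 rose and 0 fell (52.2% of all tested genes were called), and with edgeR on recovered reads 13 rose and 1 fell (58.6% of all). In neither did any of the 31 listed genes that were tested, the 5 included, change direction. The calls in the list and over the whole table both depended on single libraries. When AAV-GFP replicate 1 was left out limma called 1 of the 26 (Tkfc) and 7.68% of all tested genes. Without AAV-GFP replicate 2 it called 11 (Fads3 among them) and 34.9% of all, and without AAV-GFP replicate 3 it called 3 (Lpin1 among them) and 7.97% of all. Leaving out any of the AAV-Ly6d libraries gave 0 calls in the list, beside 0 of 1764 genes for replicate 1, 5.89% for replicate 2 and 1.08% for replicate 3. At an unadjusted p under 0.05 these fits had 10, 12 and 16 of the 26 genes, beside 43.8%, 49.1% and 47.8% of all tested genes. DESeq2 on the recovered reads of all 6 libraries called 18 of the 26 and 63.0% of all genes. Adjusted over all annotated genes it called 1 of the 26, Igfbp1, and 6.38% of the table.

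**Figure D2:**
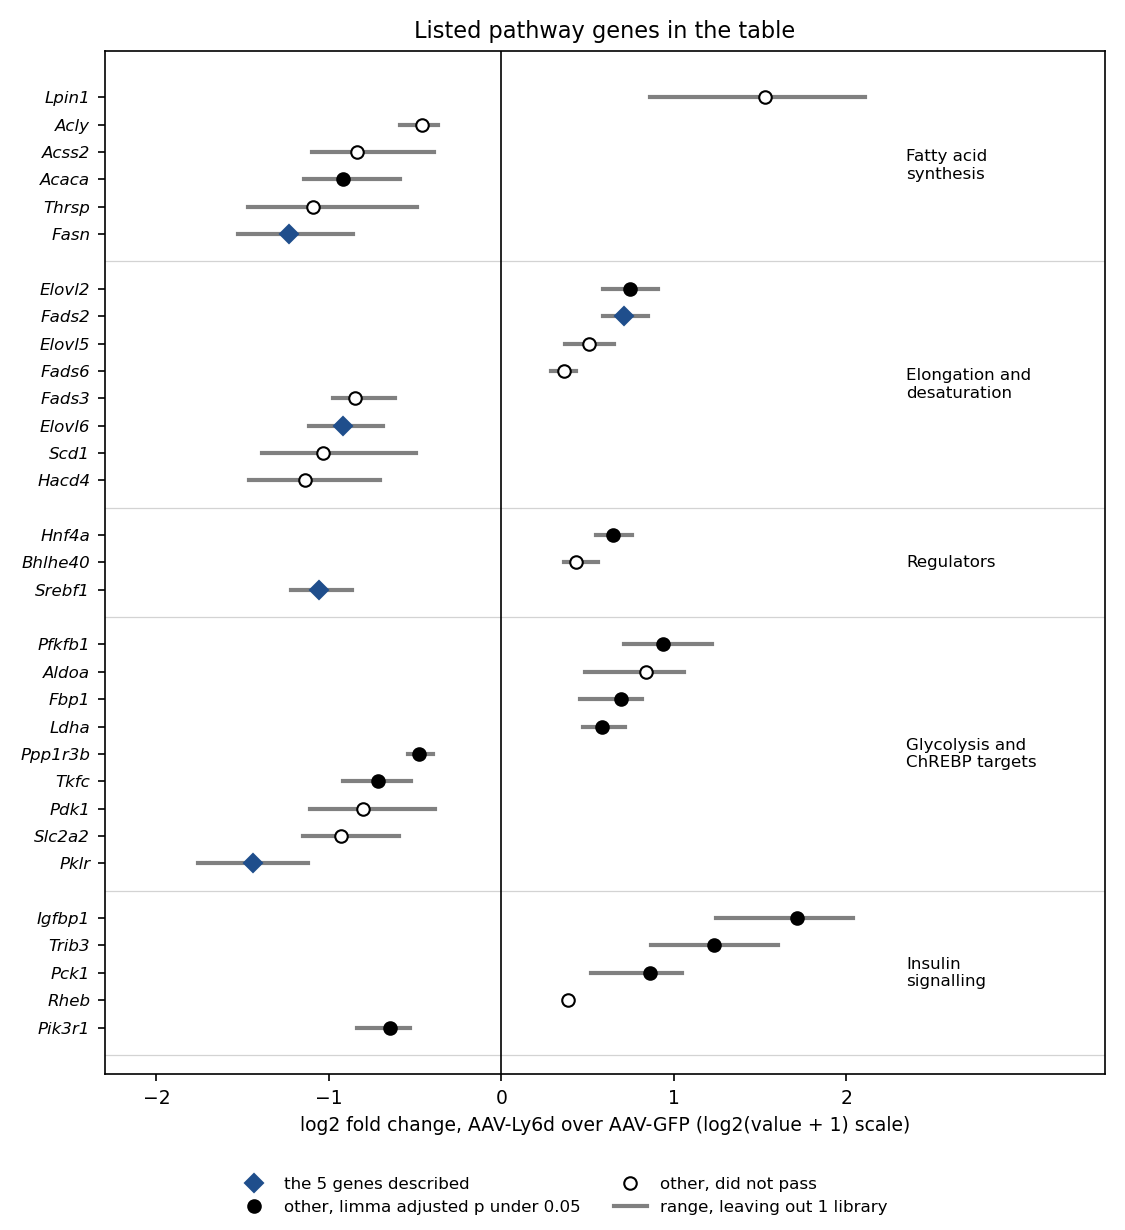
Log2 fold change of AAV-Ly6d over AAV-GFP (horizontal axis) for the 31 listed genes that were tested, by list. Diamonds are the 5 genes described, filled circles are other genes past limma's adjusted p of 0.05, open circles did not pass, and grey bars span the fits that leave out 1 library; Fads2 and Elovl2 lie right of 0 and Elovl6 and Fasn left of it.

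In the fatty acid synthesis list 5 genes besides Fasn were tested out of 17, of which 1 fell, 0 rose and 4 did not pass. Thus 20% passed, beside 43.9% of all tested genes, of which 28.0% fell and 15.9% rose. Acaca, which encodes the acetyl-CoA carboxylase that feeds Fasn, fell with 571, 738 and 651 normalised read counts in AAV-Ly6d against 896, 1946 and 1066 in AAV-GFP (log2 fold change -0.92, SE 0.30, limma adjusted p = 0.0460). Its groups did not overlap, and it did not pass after rescaling (adjusted p = 0.0724 in limma). Without AAV-GFP replicate 2 its log2 fold change was -0.59. Acly, the ATP citrate lyase gene, was at -0.46 (adjusted p = 0.0626 in limma), and Acss2, which makes acetyl-CoA from acetate, was at -0.84 (adjusted p = 0.0810), or -0.39 without AAV-GFP replicate 2. Thrsp, a lipogenic cofactor gene, was at -1.09 (adjusted p = 0.0986 in limma). Lpin1, a phosphatidate phosphatase gene of triglyceride synthesis, was at 1.53 (adjusted p = 0.0562 in limma), with 8406, 4515 and 3838 in AAV-Ly6d against 2064, 717 and 4072 in AAV-GFP. The Lpin1 groups overlapped, and without AAV-GFP replicate 2 its log2 fold change was 0.86. Lpin1 passed after rescaling (adjusted p = 0.0437 in limma) but not in edgeR.

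Besides Elovl6 and Fads2, 6 of 23 listed genes of elongation and desaturation were tested, of which 1 rose, 0 fell and 5 did not pass. Thus 16.7% passed, beside 43.9% of all tested genes, of which 15.9% rose and 28.0% fell. Elovl2, which lengthens polyunsaturated fatty acids, rose, with 21719, 30708 and 22328 normalised read counts in AAV-Ly6d against 14417, 18329 and 11876 in AAV-GFP (log2 fold change 0.75, SE 0.24, adjusted p = 0.0435 in limma). All AAV-Ly6d libraries were above all AAV-GFP libraries. Elovl5 had 12211, 15234 and 18099 in AAV-Ly6d against 10045, 9638 and 12140 in AAV-GFP, a log2 fold change of 0.51 that did not pass (adjusted p = 0.0608 in limma). Elovl5 passed after rescaling (adjusted p = 0.0404 in limma) and in edgeR (adjusted p = 0.0436). Fads6 was at 0.36, Fads3 at -0.85 and Hacd4, a dehydratase gene of the elongation cycle, at -1.14 (-0.71 without AAV-GFP replicate 2), and none of the 3 passed. Of the 3, only Fads6 passed after rescaling (adjusted p = 0.0361 in limma) and in edgeR (adjusted p = 0.0444). Scd1, the stearoyl-CoA desaturase gene that makes monounsaturated fatty acids, had 23963, 54750 and 74754 in AAV-Ly6d against 58154, 199747 and 72888 in AAV-GFP. Its groups overlapped, and its log2 fold change of -1.04, which did not pass, was -0.50 without AAV-GFP replicate 2.

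Of 21 listed regulators besides Srebf1, 2 were tested. Hnf4a, a hepatocyte transcription factor gene, rose (log2 fold change 0.65, SE 0.19, adjusted p = 0.0409 in limma), with 20638, 18243 and 17487 in AAV-Ly6d against 13911, 10375 and 11803 in AAV-GFP. Bhlhe40, a repressor gene, was at 0.43 and did not pass. After rescaling Bhlhe40 passed (adjusted p = 0.0382 in limma), as it did in edgeR (adjusted p = 0.0453). Mlxipl, Nr1h3, Insig1, Insig2 and Scap are among the 19 regulators not analysed here, and likewise 0 of 24 listed genes of SREBP-2-driven sterol synthesis and uptake are among the 1834 genes.

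The glycolysis and ChREBP list moved in both directions around Pklr. Of 36 other members 8 were tested, and 3 rose, 2 fell and 3 did not pass. Over all tested genes 15.9% rose and 28.0% fell. Pfkfb1, the bifunctional enzyme that sets fructose 2,6-bisphosphate in liver, rose, with 936, 924 and 789 normalised read counts in AAV-Ly6d against 426, 335 and 677 in AAV-GFP (log2 fold change 0.94, SE 0.27, adjusted p = 0.0412 in limma). Fbp1, the gluconeogenic phosphatase that opposes glycolysis, rose by 0.69 and Ldha, a lactate dehydrogenase gene, by 0.59 on the log2 scale (adjusted p = 0.0473 and 0.0478 in limma). Without AAV-GFP replicate 2 the log2 fold change of Fbp1 was 0.46, and Ldha did not pass (adjusted p = 0.0562 in limma). Tkfc, which phosphorylates glyceraldehyde from fructose, fell by 0.72 and Ppp1r3b, a glycogen-targeting phosphatase subunit gene, fell by 0.48 on the log2 scale (adjusted p = 0.0435 and 0.0497 in limma). Neither passed after rescaling, where Tkfc was at -0.38 and Ppp1r3b at -0.13 (adjusted p = 0.159 and 0.610 in limma), nor in edgeR. Slc2a2, the glucose transporter gene of hepatocytes, had 6078, 3653 and 6637 in AAV-Ly6d against 8599, 15999 and 7398 in AAV-GFP, a log2 fold change of -0.93 that did not pass (adjusted p = 0.0531 in limma) and was -0.59 without AAV-GFP replicate 2.

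Of 24 listed insulin signalling genes 5 were tested, and 3 rose, 1 fell and 1 did not pass. Among all tested genes 15.9% rose and 28.0% fell. Igfbp1, whose transcription insulin represses, had 2636, 7994 and 3390 normalised read counts in AAV-Ly6d against 1458, 804 and 1719 in AAV-GFP, and rose (log2 fold change 1.72, SE 0.44, adjusted p = 0.0365 in limma). AAV-Ly6d replicate 2 stood well above the other libraries, and the groups did not overlap. Pck1, a gluconeogenic gene that insulin also represses, rose by 0.86, and Trib3, which encodes an inhibitor of the kinase AKT, rose by 1.23 on the log2 scale (adjusted p = 0.0498 and 0.0414 in limma). Without AAV-GFP replicate 2 the log2 fold change of Pck1 was 0.52. Pik3r1, the regulatory subunit gene of phosphoinositide 3-kinase, fell by 0.65 on the log2 scale (adjusted p = 0.0464 in limma). It did not pass after rescaling, where it was at -0.31 (adjusted p = 0.276 in limma), nor in edgeR, nor without AAV-GFP replicate 2. Rheb, an activator of mTOR, was at 0.39 and did not pass. After rescaling Rheb passed (adjusted p = 0.0368 in limma), as it did in edgeR (adjusted p = 0.0420).

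**Figure D3:**
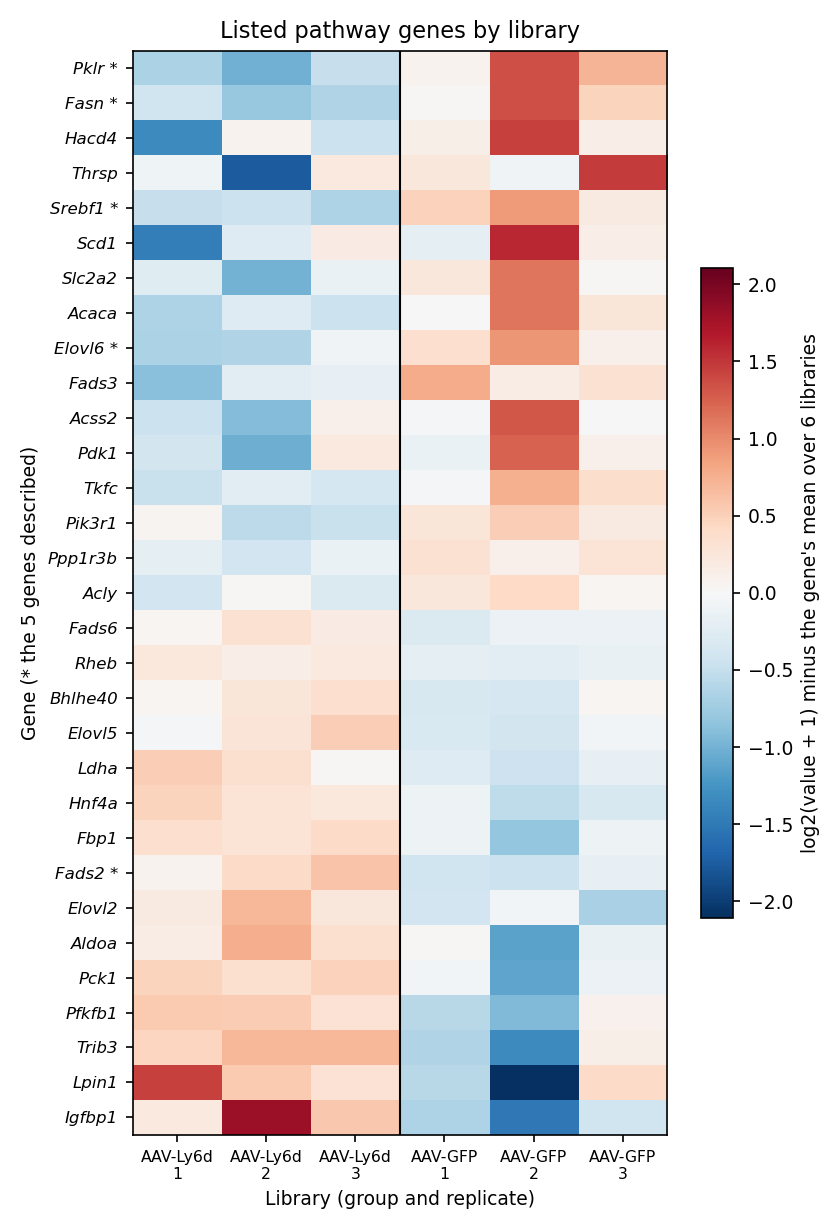
Log2(value + 1) of the 31 tested pathway genes (rows, ordered by fold change) minus each gene's mean over the 6 libraries (colour), with the AAV-Ly6d libraries left of the line and the AAV-GFP libraries right of it. AAV-GFP replicate 2 holds the highest value of 13 of the 31 genes, Pklr, Fasn, Srebf1 and Elovl6 among them.

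AAV-GFP replicate 2 moved with these differences. Its median ratio to the table was 1.36, against 1.02 and 1.03 for AAV-GFP replicates 1 and 3 and 0.857 to 0.915 for the AAV-Ly6d libraries. AAV-GFP replicate 2 was the highest of the 6 libraries for 4 of the 5 genes, for 9 of the 26 other pathway genes and for 813 (45.7%) of all tested genes. Its part in the difference of the 5 genes is given by the values without it: the direction was the same for each, and the log2 fold changes were -0.87, -0.86, -0.68, 0.66 and -1.12 for Srebf1, Fasn, Elovl6, Fads2 and Pklr.

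Endothelial and stellate cell markers were lower in AAV-Ly6d, as the 4 genes were. All 10 tested of 17 listed endothelial markers fell, where 28.0% of all tested genes fell, and their summed normalised read count ranged from 2783 to 3521 in AAV-Ly6d and from 7500 to 12007 in AAV-GFP. For stellate cells and fibroblasts 8 of 15 markers were tested, and 6 fell and 2 did not pass, with sums of 1128 to 2527 in AAV-Ly6d and 3648 to 5196 in AAV-GFP. Of 14 listed hepatocyte markers 6 were tested, and 2 rose and 4 did not pass, where 15.9% of all tested genes rose. In all AAV-Ly6d libraries 5 of the 6 were higher, as were 35.2% of all tested genes. The hepatocyte marker sums were 522449, 519074 and 513538 in AAV-Ly6d, against 432190, 887831 and 395348 in AAV-GFP. These are the highest sums of the marker lists. AAV-GFP replicate 2 alone exceeded the AAV-Ly6d libraries, and 743167 of its sum was Apob, the apolipoprotein B gene. Without Apob the hepatocyte sums were 306360, 326392 and 326378 in AAV-Ly6d, against 230674, 144664 and 209034 in AAV-GFP. AAV-GFP replicate 2 was then the lowest library, and the groups did not overlap. Of 6 bile duct cell markers 1 was tested, Sox9, which rose, with 102 to 148 in AAV-Ly6d and 33.4 to 64.1 in AAV-GFP. Of 6 adipocyte markers, which matter because fat tissue also expresses Fasn and Srebf1, only Retn was in the table, with 0 in all AAV-Ly6d libraries and 0.968, 0 and 23.6 in AAV-GFP. None of 11 macrophage markers is among the 1834 genes. The part of the cell makeup in the differences of the 5 genes was not tested.

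Transcript length also moved with the fold change across the table. Split into 3 classes of 593 genes by length, the median log2 fold change was 0.56 in the shortest class (up to 2729 bases), -0.67 in the middle class and -0.85 in the longest class (from 4764 bases). Fasn (10050 bases) and Elovl6 (5951 bases) lie in the longest class, where 13.5% of the genes were higher in AAV-Ly6d. Pklr (2902 bases), Fads2 (3150 bases) and Srebf1 (4299 bases) lie in the middle class, where 40.1% of the genes were higher in AAV-Ly6d. The part of transcript length in the differences was not tested.

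**Figure D4:**
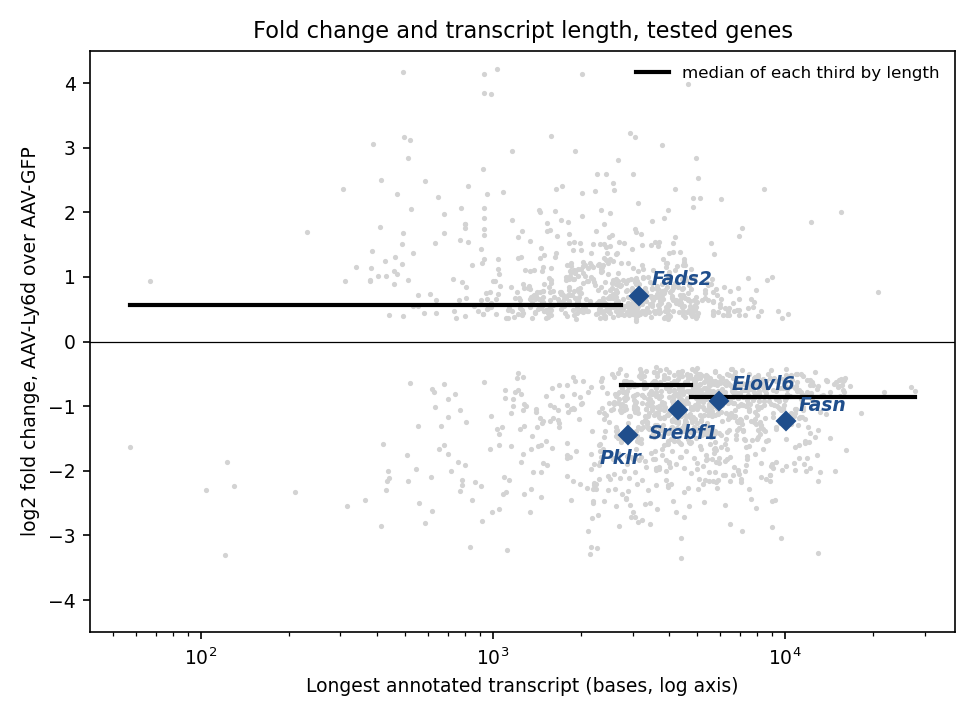
Log2 fold change of AAV-Ly6d over AAV-GFP (vertical axis, cut at 4.5, which leaves out 4 genes) against the longest annotated transcript in bases (horizontal log axis) for 1779 tested genes with a length (grey), with the 5 genes as blue diamonds and the median of each length class as black lines. The band around 0 holds no gene, and Fads2 lies above it while the other 4 genes lie below.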

How the data were processed

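The authors deposited normalised read counts per gene, 1 value for each of 1834 genes in 6 libraries, treated as a non-negative signal. Bowtie 0.12.2 and mm10 are named in the submitters' processing notes, with no role. For the read counter, its strand setting and the normalisation, no tool is named there. In each column all values were whole multiples, within 0.001, of 1 step (100% of values), which recovered reads, between 3248078 and 4359932 per library over these genes; the full depth is unknown. Symbols, positions and transcript lengths came from GENCODE M21 (1833 genes had a symbol).

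Differences were fitted with limma 3.58.1 (R 4.3.3) on log2(value + 1) with a mean-variance trend over the 1780 genes that reached a value of 1 in 3 or more libraries. Fold changes on this scale understate the change of low genes. "Rose" and "fell" mean an adjusted p under 0.05 over all tested genes. Alternatives used edgeR 4.0.16 and DESeq2 1.42.0 on recovered reads, other filters, pseudocounts and scaling, and each library left out. The edgeR fit rescaled the libraries by its own factors from these genes, while the DESeq2 fit kept the deposited scale. The main limma fit and the edgeR and DESeq2 fits were tried on simulated data in which most genes did not differ, a makeup unlike this table's. The limma alternatives were not tried in this way.

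The 5 genes, the lists and the tests were chosen with earlier results of these data known. Named are the 5 genes, Ly6d, up to 6 tested members of each list with the smallest p, and the 3 genes nearest to each of the 5. Also named are Abca1 and those of the 1834 genes whose window held the LXR or carbohydrate response element. In the hepatocyte list 1 symbol, Tf, did not match the annotation.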

Additional observations from a re-analysis of the deposited data

How the results depend on the processing

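The log2 fold changes of Srebf1, Fasn, Elovl6, Fads2 and Pklr kept their direction in all 14 alternatives run for each. They moved by more than the spread between replicates (1 SD of the log2 values) for Srebf1 (-0.71) and Fads2 (1.05) after rescaling by the median ratio. The counts of calls changed far more. Limma called 782 of the tested genes, 357 with a mean of at least 50 required, and 0 to 607 with 1 library left out. The 0 was without AAV-Ly6d replicate 1, where 773 genes had an unadjusted p under 0.05. Of the 31 listed pathway genes, counted with the 5 genes that were chosen on this same difference, 9 rose and 8 fell; 4 fell with the mean filter, 15 rose and 3 fell after rescaling, and 14 rose and 5 fell in edgeR, which called 944 genes on recovered reads (DESeq2 1156). All 4 that fell with the mean filter and all 3 after rescaling were among the 5; without the 5, 8 rose and 4 fell of 26, and 14 rose and 0 fell after rescaling. With 1 library left out, 0 to 8 rose and 0 to 8 fell. The labels do not say whether same-numbered libraries belong together. Same-numbered deviations from the group means had correlations between -0.058 and -0.020, which cannot decide it with so few libraries. With a replicate block limma called 48 genes, with 0 listed genes that rose and 0 that fell. At an unadjusted p under 0.05 this fit had 11 listed genes higher and 11 lower, beside 63.3% of all tested genes. Chosen after seeing the data, an adjustment over all 55450 annotated genes left 1 call in limma, with 0 listed genes that rose and 0 that fell. At an unadjusted p under 0.05 limma had 13 listed genes higher and 11 lower, beside 78.3% of all tested genes. In DESeq2 the same adjustment left 117 calls, with 1 listed gene that rose and 2, both among the 5, that fell. The cause of these changes was not tested.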
